A study of Arabidopsis thaliana with 7 samples.

Results

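The genes described here were named in every one of 6 gene lists that set *msh1* memory line rosettes of *Arabidopsis thaliana* against wild type by FAIRE-seq. Membership was defined by the listings themselves: a gene belonged when its locus identifier was present in all 6 lists. The rule found 426 genes of the 2600 named in at least 1 list, which is 1.55% of the 27444 nuclear protein-coding genes, while 9.47% were named at least once. The 813 genes named in exactly 1 list (2.96%) served as the comparison, and 24844 genes were named in none.

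The samples were whole rosettes of ecotype Columbia-0, taken after 14 days in MS media under days of 12 h light at 24 °C, and crosslinked with formaldehyde. Crosslinked libraries were made from 2 wild type replicates (numbered 2 and 3) and 3 replicates of the *msh1* memory line (numbered 1, 2 and 3). Memory plants carry no *MSH1* silencing transgene but descend from plants that did, so the line is a derived lineage and not a mutant allele. Each list compared 1 memory library with 1 wild type library, the latter under the codes C2 and C3, and 1 decrossed pool of 3 plants per genotype was not analysed here.

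FAIRE recovers DNA that formaldehyde has not tied to protein, so that its reads gather over nucleosome-poor regulatory DNA, most often at promoters and enhancers. The MSH1 protein, known from plants, guards mitochondrial and plastid DNA against rearrangement, and plants without it grow, flower and respond to stress in altered ways. Genes for transcription factors, receptor kinases and chromatin proteins are the usual carriers of such developmental and stress programmes in plants.

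The lists hold presence or absence of a gene with a called region in it or within 2 kb on either side. They give no position, height, count or direction, so they do not state whether a region was more or less open in the memory line. Their sequencing depth is unknown, so no value per library and no sampling error of a listing can be given. In whole rosettes a change in the makeup of cells and a change in chromatin within cells cannot be told apart. Genes are not replicates, the 6 lists share libraries, and the comparisons below are therefore counts and medians with no test. Whether rosette markers were open could not be checked, since a listing marks a contrast and not a level.

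The 426 genes made up a different share of each list because the lists differed in length. They were 26.5% of the 1608 genes for memory replicate 1 against C2 and 32.6% of the 1305 genes for replicate 1 against C3. For replicate 2 they were 32.9% of 1296 genes against C2 and 40.5% of 1053 against C3. For replicate 3 they were 35.1% of 1213 genes against C2 and 43.8% of 973 against C3. As a share of all nuclear protein-coding genes, the lists against C2 held 5.86%, 4.72% and 4.42% for memory replicates 1, 2 and 3, and those against C3 held 4.76%, 3.84% and 3.55%. The number of genes fell off from 813 in 1 list to 576 in 2, 363 in 3, 272 in 4 and 150 in 5, and then was 426 in all 6. Of the 813, 262 came from memory replicate 1 against C2, while each other list gave 80 to 135. Just outside the rule, the 150 genes in exactly 5 lists (0.547% of genes) lacked memory replicate 3 against C3 most often, in 45 genes, and memory replicate 2 against C2 least often, in 16. They included *TCP20*, a growth-related transcription factor, and *BZIP49*, a relative of the endoplasmic reticulum stress factors, both lacking only replicate 3 against C3. Also among them were *HTA9*, a histone H2A.Z gene, and *AGO9*, an ARGONAUTE of small RNA silencing, both lacking only replicate 3 against C2.

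**Figure D1:**
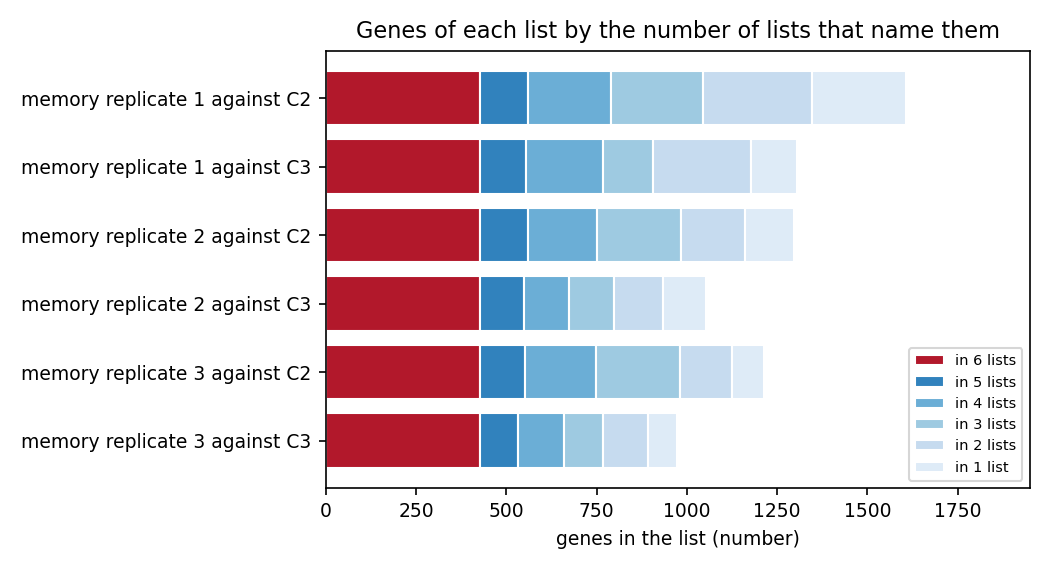
Number of genes in each of the 6 lists (x axis), split by how many of the lists name the gene (colour). The 426 genes named in all 6 lists (red) are the same block in every bar, and the bars differ in the genes with fewer listings, from 973 genes for memory replicate 3 against C3 to 1608 for memory replicate 1 against C2.

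Among genes with a known product, the larger classes included regulators. Classes may overlap, so that *ARF8* and *ERF5* count both as transcription factors and as hormone genes. By RefSeq product name, transcription factors made up 32 of the 426 genes (7.51%), against 2.95% of genes in exactly 1 list and 5.19% of all nuclear protein-coding genes. By the text of the lists themselves the shares were 6.81% and 3.57% for genes in all 6 lists and in 1 list. Protein kinases were 24 genes (5.63%), against 2.71% of genes in 1 list and 4.11% of all genes. Chromatin and silencing genes were 12 (2.82%), against 1.11% and 1.28%. These 3 classes were the ones whose share in the 426 genes lay above that in exactly 1 list by the most percentage points by RefSeq names. By the text of the lists the ECA1 gametogenesis class (1.41% against 0.369%) stood slightly further above than chromatin genes (2.11% against 1.11%).

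The transcription factors with a symbol included growth and patterning genes and stress genes. Homeobox genes included *KNAT1* (chr4:5147699-5151159, minus strand), which maintains meristem fate, *ATHB-23*, and the class II HD-ZIP genes *HAT1* and *HAT2*. *AP2* (chr4:17400610-17403469) specifies floral organs, *YAB5* belongs to the YABBY family of leaf polarity, and *GRF3* (AT2G36400) and *GRF8* are growth-regulating factors of leaf size. *PRE6* and *HBI1* encode helix-loop-helix proteins of brassinosteroid-linked cell elongation, and *BEH1* is a member of the BES1 and BZR1 family that acts at the end of brassinosteroid signalling. *BHLH72*, which is *PIF7*, acts in the response to shade, and *GPRI1*, which is *GLK1*, drives chloroplast development. Stress factors were *HSFA3* of the heat response, *BZIP60* of the unfolded protein response, *TGA2* of salicylic acid responses, *ERF5* of ethylene and defence responses, and *PHL1* of phosphate starvation. The 24 transcription factors of exactly 1 list began in locus order with *ERF10*, *ARF20*, *TCP8* and *AtMYB103*, which belong to the ethylene response, auxin response, TCP and MYB families.

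Several of these factors had a distant upstream protein-coding neighbour. The 32 transcription factors had a median of 3164 bp between the gene and its upstream protein-coding neighbour, against 1886 bp for the 24 in exactly 1 list and 2116 bp for the 1424 of the whole genome. *HAT1* had 10151 bp, *KNAT1* 7873 bp, *AP2* 7130 bp and *PRE6* 5836 bp, while *HSFA3* had 33 bp and *ERF5* 31 bp. When only genes with over 2 kb of upstream space were counted, transcription factors were 21 of 220 genes in all 6 lists (9.55%), 11 of 291 in exactly 1 list (3.78%) and 738 of 8056 over the genome (9.16%). The share in the set was thus near that of all genes over the same limit, and the genes in 1 list held few. The same count for kinases gave 15 of 220 (6.82%), 3.44% and 4.46%, and for chromatin genes 7 of 220 (3.18%), 1.72% and 1.07%.

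**Figure D2:**
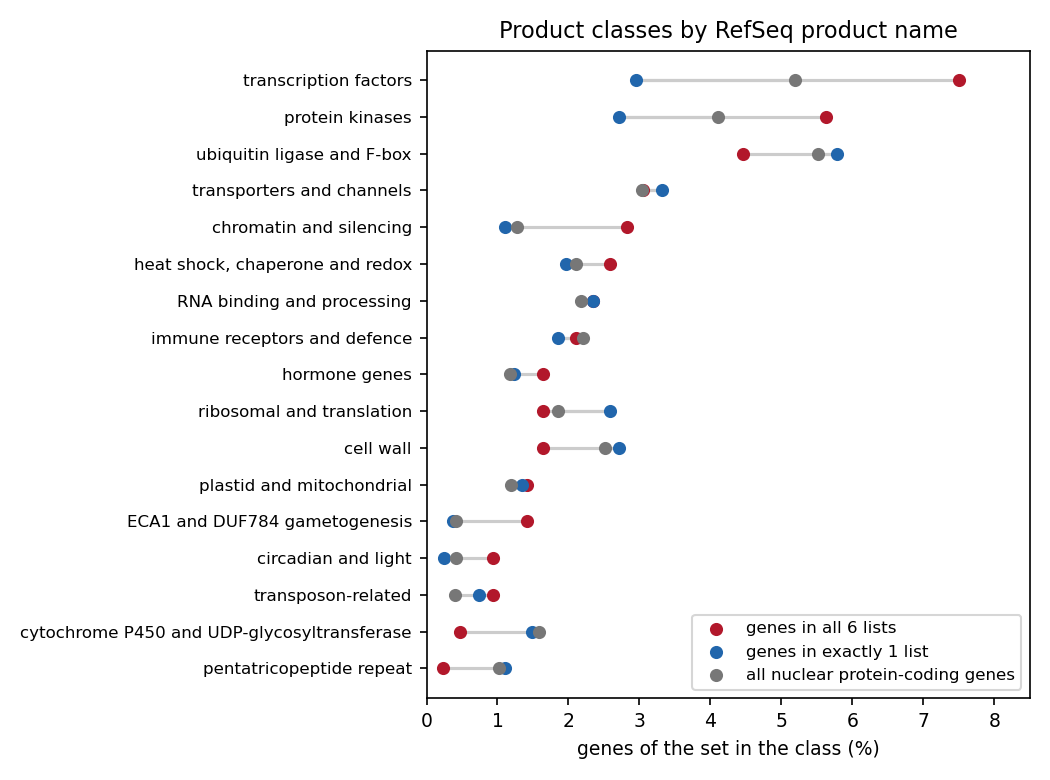
Share of genes in each product class (x axis, %), by RefSeq product name, for the 426 genes in all 6 lists (red), the 813 in exactly 1 list (blue) and all 27444 nuclear protein-coding genes (grey). Transcription factors, protein kinases and chromatin genes lie to the right in red, at 7.51%, 5.63% and 2.82%, and cytochrome P450 genes lie to the left at 0.469%. Pentatricopeptide repeat genes lie to the left in these names, at 0.235%, but not by the text of the lists.

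The kinases covered receptors at the cell surface and the cascades below them. *BAK1* (chr4:16086311-16090832, minus strand) encodes the co-receptor shared by brassinosteroid and immune receptors, and *SERK4* (chr2:5741592-5746833) its close relative. *EMS1* (chr5:2284830-2288855) encodes the receptor that sets tapetum fate in anthers, and *TPD1* (chr4:12837353-12840230), the gene for its small protein ligand, was also in all 6 lists. *TDR* encodes the receptor of a peptide that maintains vascular stem cells, and *RPK1* a receptor-like kinase of abscisic acid responses and embryo patterning. *MEKK1* (chr4:5403671-5407320, minus strand), a kinase at the top of a defence cascade, *MPK3* (chr3:16756571-16758874), a stress-activated MAP kinase, and *MPK17* represented MAP kinase cascades. *WNK2* and *WNK9* are kinases that lack the usual catalytic lysine. The 22 kinases of exactly 1 list began in locus order with *CKA3*, a catalytic subunit of casein kinase, *MPK6*, which acts beside MPK3 and was named by memory replicate 3 against C2, *MAPKKK20* and *LECRK43*.

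Chromatin genes in all 6 lists were readers, erasers and structural proteins. *TPR1* (chr1:30260818-30267125, minus strand) and *TPR2* (chr3:5731519-5737854) encode TOPLESS-related corepressors, which bring histone deacetylases to repressed genes, and *HDA9* (chr3:16226519-16230009, minus strand) encodes a histone deacetylase. *SHL* encodes a reader of histone methylation in flowering control, and AT3G43990 and AT4G04260 were both annotated with the same BAH domain, as 2 of the 4 genes of that product name in the genome. *HTA7* and *MGH3* encode a histone H2A and the histone H3 of sperm cells. AT5G46910 was annotated as a jumonji protein, a family of histone demethylases, and *AHL22* encodes an AT-hook protein that delays flowering, with *AHL11* of the same family. The 9 chromatin genes of exactly 1 list began in locus order with *SDE3*, an RNA helicase gene of silencing, *NRPD1*, the large subunit gene of RNA polymerase IV, *SUVR5*, a histone methyltransferase gene, and *HIS4*, a histone H4 gene. With classes this small the ratio of the shares moved with the library set: by list text it was 1.9, without memory replicate 1 it was 1.09, and with the lists against C2 alone it was 1.01.

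Hormone genes were 7 of the 426 (1.64%, against 1.23% in exactly 1 list and 1.18% of all genes), and most of them were auxin genes. The share of auxin genes among all hormone genes was not counted. Of 23 auxin response factors 18 were in no list, as were 4 of 6 TIR1 and AFB receptors. The auxin genes covered synthesis by *YUC9*, perception by the F-box receptor *AFB2*, repression by *IAA8* and response by *ARF8* (chr5:14629453-14634454). *DFL2* is a member of the GH3 family. *TIFY3B* is the jasmonate repressor also called JAZ12, and *ERF5* is the ethylene response factor named above. *ARF8*, *IAA8*, *AFB2* and *YUC9* had 6359, 5062, 4873 and 4591 bp of upstream space, whereas *DFL2* overlapped its upstream neighbour. The median was 942 bp for all genes but 2385.5 bp for the 324 hormone genes of the genome. With over 2 kb of upstream space, hormone genes were 4 of 220 in the set (1.82%), against 1.37% in exactly 1 list and 2.18% of all such genes. Genes in exactly 1 list had 10 hormone genes, among them *ARF20*, *EIL3* and *GH3.1*.

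Light, chloroplast and protein quality genes were fewer. The 4 genes classed as circadian or light (0.939%, against 0.246% and 0.415%) were *BHLH72*, *LHCB2.1*, *TLP1*, which encodes a protein with a light-sensing LOV domain, and AT3G21320, annotated as an EARLY FLOWERING protein. Plastid and mitochondrial genes were 6 by RefSeq names (1.41%, against 1.35% and 1.19%). By the text of the lists they were 4.93%, below the 6.4% of genes in exactly 1 list. Photosynthesis genes were picked by role and their share was not counted. They included *LHCB2.1* of the light-harvesting antenna, *PSAD1* of photosystem I, *PSBQ2* of photosystem II, and *CHLH*, a subunit of the magnesium chelatase of chlorophyll synthesis. Chaperone and redox genes numbered 11 (2.58%, against 1.97% and 2.11%), among them *GPX6*, a glutathione peroxidase, *NTRC*, a plastid thioredoxin reductase, and *HSP90-5*, a plastid chaperone. Ubiquitin and F-box genes were 19 (4.46%), below the 5.78% of genes in exactly 1 list and the 5.52% of all genes, and included the polyubiquitin genes *UBQ11* and *UBQ13*, *CAND1*, which cycles cullin ligases, and *FBW2*.

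Cell wall and cytochrome P450 genes held lower shares in the set than in the genome, and ribosomal genes a share near it. Ribosomal and translation genes were 7 (1.64%, against 2.58% and 1.85%), while by the text of the lists they were 2.11%, against 2.09% in exactly 1 list. With over 2 kb of upstream space they were 1.82%, against 0.943% of all such genes. The 7 genes included *RPL9C*, *RPL14A*, *RPS21C* and *LOS1*, an elongation factor of cold responses. Cell wall genes were 7 (1.64%, against 2.71% and 2.51%), among them *XTH27*, an endotransglycosylase of xyloglucan, and *EXT13*, an extensin. The cytochrome P450 class had 2 genes (0.469%, against 1.48% and 1.58%), *CYP79C2* and AT1G58265, and these lay 2913 bp apart on chromosome 1. Pentatricopeptide repeat genes, which act on organelle RNA, were 1 of 426 (0.235%, against 1.11% and 1.02%) by RefSeq names, but 5 (1.17%, against 1.23% in exactly 1 list) by the text of the lists. Transporters were 13 (3.05%, against 3.32% and 3.03%), with *POT1* for potassium, *NHX4* for sodium and protons, *BOR3* of the borate exporter family, and *VDAC2* of the mitochondrial outer membrane. RNA-binding genes were 10 (2.35%, against 2.34% and 2.17%), among them *PTB3*, a splicing regulator, and *UBP1C*. The immune class had 9 genes (2.11%, against 1.85% and 2.20%), and held *RIN4*, the target guarded by the resistance protein RPM1, its relative AT2G04410, and *RIN13*. Genes of unknown product were 71 (16.7%, against 15.6% and 14.7%), so that a lack of annotation did not set the 426 genes far from the rest.

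SAM synthetases, chosen after their listings were seen, had 3 of their 4 genes in the set. S-adenosylmethionine synthetases make the methyl donor of DNA, histone and small-molecule methylation. *SAM1* (chr1:518091-520495), *SAM2* (chr4:795986-798381, minus strand) and *METK4* (chr3:5952187-5954091, minus strand) were in all 6 lists, and the fourth gene, *MAT3*, was in 0. *SAM1* and *SAM2* proteins were 96.4% identical over 393 residues, and METK4 was 90.8% identical to SAM1. *SPDS3*, annotated as a spermidine synthase, was also in all 6 lists, and it overlaps *CNGC1*, another gene in all 6 lists. The 250 bases before the gene starts of the 3 listed synthetases are shown to let the promoters be compared, from the RefSeq genome TAIR10.1, in the direction of the gene. Capitals mark the motifs described further on (TATA box, evening element, runs of A or T), on either strand.
SAM1, chr1:517841-518090, plus strand: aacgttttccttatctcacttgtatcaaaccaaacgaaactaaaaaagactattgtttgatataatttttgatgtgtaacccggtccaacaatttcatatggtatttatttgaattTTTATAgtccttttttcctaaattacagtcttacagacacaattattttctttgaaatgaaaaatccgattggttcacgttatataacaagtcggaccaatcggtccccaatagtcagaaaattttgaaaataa
SAM2, chr4:798382-798631, minus strand: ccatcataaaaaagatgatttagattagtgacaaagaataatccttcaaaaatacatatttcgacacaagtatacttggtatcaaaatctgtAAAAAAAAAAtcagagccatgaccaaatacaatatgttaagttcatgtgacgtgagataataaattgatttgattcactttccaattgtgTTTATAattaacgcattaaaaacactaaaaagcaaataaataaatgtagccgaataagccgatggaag
METK4, chr3:5954092-5954341, minus strand: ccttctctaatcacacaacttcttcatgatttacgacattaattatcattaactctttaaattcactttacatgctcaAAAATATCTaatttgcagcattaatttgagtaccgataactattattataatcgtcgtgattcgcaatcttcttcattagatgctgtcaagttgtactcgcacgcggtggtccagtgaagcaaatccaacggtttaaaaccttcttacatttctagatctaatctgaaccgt
The TATA box letters appeared before *SAM1* and *SAM2* only on the strand opposite to the gene, and so are printed as TTTATA. A run of A appeared before *SAM2*, and the evening element before *METK4*. The 3 genes are on different chromosomes, so 1 called region could not have named more than 1 of them. The share of 31-base words found more than once in the genome, over the gene and 2 kb on both sides, was 1.25% at *SAM1*, 0.566% at *SAM2* and 0.187% at *METK4*.

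Other families, chosen after their listings were seen, were split between members in all 6 lists and members in none. Of 9 *ATG8* genes, whose products coat autophagosomes, *ATG8B*, *ATG8F* and *ATG8I* were in all 6 lists and 6 were in 0. Of 5 TOPLESS family genes, *TPR1* and *TPR2* were in all 6 and 3 in 0, including *TPL* itself. *BAK1* and *SERK4* were in all 6 lists and the other 3 SERK genes in 0. *HAT1* and *HAT2* were in all 6 lists and 8 class II HD-ZIP genes in 0. *RAN2* and *RAN3*, GTPases of nuclear transport, were in all 6 lists, *RAN1*, the neighbouring locus of *RAN2*, in 2 and *RAN4* in 0. *WNK2* and *WNK9* were in all 6 and 9 WNK genes in 0, and *AGP17* and *AGP18*, arabinogalactan proteins of the cell surface, were in all 6 with *AGP19* in 0. Of 20 cyclic nucleotide-gated channels, which carry calcium, *CNGC1* and *CNGC10* were in all 6, *CNGC12* in 1 and 17 in 0. Of 20 MAP kinases, *MPK3* and *MPK17* were in all 6, *MPK5* in 3, *MPK6* in 1 and 16 in 0. Of 23 auxin response factors, *ARF8* was in 6 lists, *NPH4* in 4, *ARF6* in 3, *ARF15* in 2, *ARF20* in 1 and 18 in 0.

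**Figure D3:**
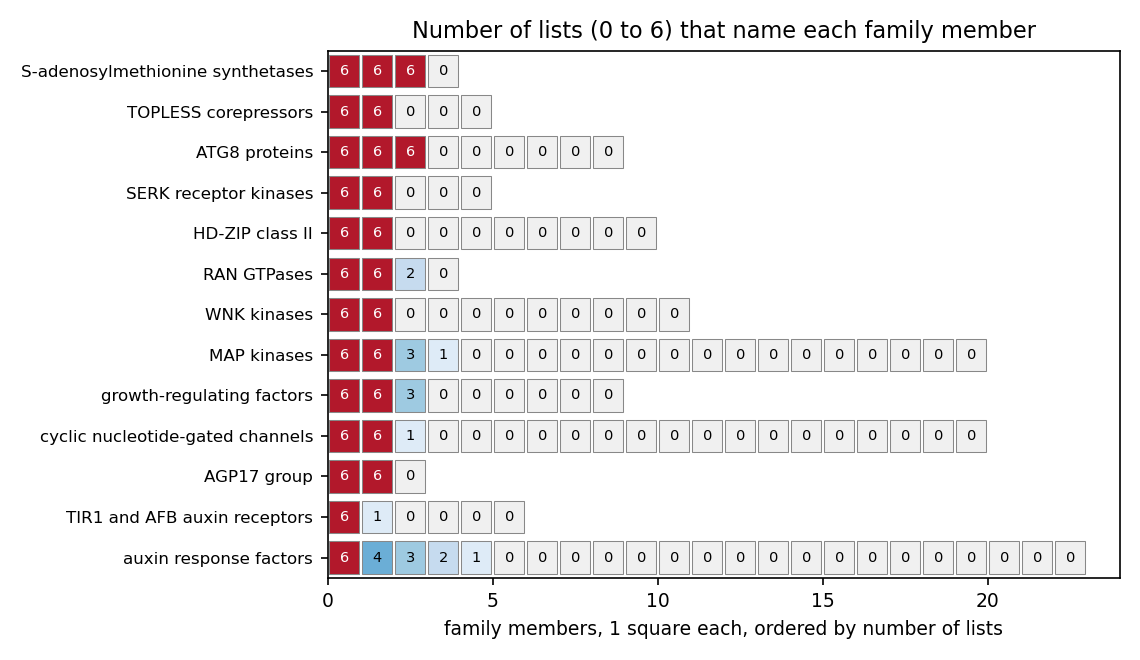
Families with members among the 426 genes, chosen after their listings were seen: each square is 1 gene and its number is how many of the 6 lists name it. Of 4 SAM synthetases 3 are at 6 and 1 is at 0, and of 23 auxin response factors 1 is at 6 and 18 are at 0.

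Protein similarity was then read across the whole set. A match by blastp was found for 356 of the 426 proteins, and the best match was itself in all 6 lists for 25 of them (7.02%), against 1.55% of all genes. For the 671 matched proteins of genes in exactly 1 list, the best match was in all 6 lists for 12 (1.79%) and in exactly 1 list for 29 (4.32%). The best match was in no list for 293 of the 356 (82.3%). The 25 included the pairs *RAN2* with *RAN3* (96.4% identity), *HAT1* with *HAT2* (76.4%) and *BAK1* with *SERK4* (77.5%). Others were unannotated genes of gene-poor chromosome regions, such as AT1G40104 and AT2G08986 (63.1%). Near-identical genes can share reads, and the mapping of such reads is not stated in the sources used here.

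Few of the 426 genes were neighbours. When genes with overlapping windows of 2 kb were joined, they formed 410 loci, of which 395 held 1 gene, 14 held 2 and 1 held 3. The triplet was AT1G45215, AT1G45221 and AT1G45223 on chromosome 1 (from 17137703 to 17141771), whose proteins were up to 99.1% identical. The outer pair carry the ECA1 gametogenesis description, a family of small cysteine-rich proteins. The ECA1 gametogenesis class, which pools this description with related product names, held 6 of the 426 genes (1.41%), against 0.369% of genes in exactly 1 list and 0.412% of all genes. In regions with 200 or more genes per Mb it was 1 of 309 (0.324%, against 0.239% of all genes there), and with over 2 kb of upstream space 1 of 220 (0.455%, against 0.459%). Among the pairs were *SAM1* with AT1G02475, *PRE6* with *ATHB-23*, *ERF5* with *atnudt8*, *XBAT33* with *EMS1*, and *SPDS3* with *CNGC1*, whose gene ends overlapped. In gene order, with no limit of distance, the longest series was 6 consecutive core genes on chromosome 1: AT1G39070, AT1G40083, AT1G40086, AT1G40087, AT1G40090 and AT1G40104. They spread from 14733525 to 15085893, where there were 8 to 12 protein-coding genes per Mb. A further 3 in a row were AT2G08986, AT2G09388 and AT2G09838 on chromosome 2, all of unknown product.

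Most genes next door to a listed gene were in no list, though fewer than beside unlisted genes. Of the 476 nearest protein-coding neighbours that lay within 2 kb of a core gene, 398 (83.6%) were in no list, 78 (16.4%) in at least 1 and 14 (2.94%) in all 6. For genes in exactly 1 list, 926 of 1131 such neighbours (81.9%) were in no list. For genes in no list the share was 92.6%, with 7.4% of the neighbours in at least 1 list and 1.04% in all 6. How the authors chose among the genes within 2 kb of a called region is not given in the sources used here.

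The 426 genes had more space to the upstream protein-coding neighbour than other genes. Median upstream space was 2187 bp (quartiles 675.5 and 4869.5), against 1215 bp (301 and 2938) for genes in exactly 1 list and 942 bp (259 and 2350) for all genes. Genes in exactly 5 lists were between, at 1656 bp. With all annotated genes as neighbours, pseudogenes included, the medians were 1195 bp for the set, 782 bp in exactly 1 list and 719 bp for all genes. Downstream space had medians of 783.5, 480 and 393 bp. Upstream space passed 4 kb in 127 of the 426 (29.8%), against 18.6% and 13.4%. The 3 genes with the most space on both sides were AT1G38790 (404212 bp), AT1G40390 (336287 bp) and AT1G40104 (221846 bp), all on chromosome 1. AT1G06045, AT1G24350 and AT3G52710 overlapped a neighbour on both sides, at 0 bp, and *HSFA3* came next with 33 bp in all. Gene length differed little, with medians of 2249.5, 2223 and 2078 bp, and so did the length of the protein, at 333.5, 351 and 348 residues. GC content around the gene was 36.3% at the median for the 426 genes, 36.3% for genes in exactly 1 list and 36.5% for all genes.

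A larger share of the set than of other genes lay in gene-poor regions. Regions with fewer than 200 protein-coding genes per Mb, counted 250 kb to each side, held 117 of the 426 genes (27.5%), against 17.1% of genes in exactly 1 list and 8.68% of all genes. Below 100 genes per Mb the shares were 13.6%, 5.17% and 2.57%. *KNAT1* and *BZIP60* were such genes, at 72 genes per Mb each, and *SERK4* stood at 114. Among genes in regions with 200 or more genes per Mb, median upstream space was 1499 bp for the 309 core genes, 947 bp for 674 genes of exactly 1 list and 848 bp for 25062 genes of the genome. Median downstream space there was 342, 341.5 and 337.5 bp. Upstream space thus remained larger for core genes in gene-rich regions, while the medians of downstream space were nearly the same.

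**Figure D4:**
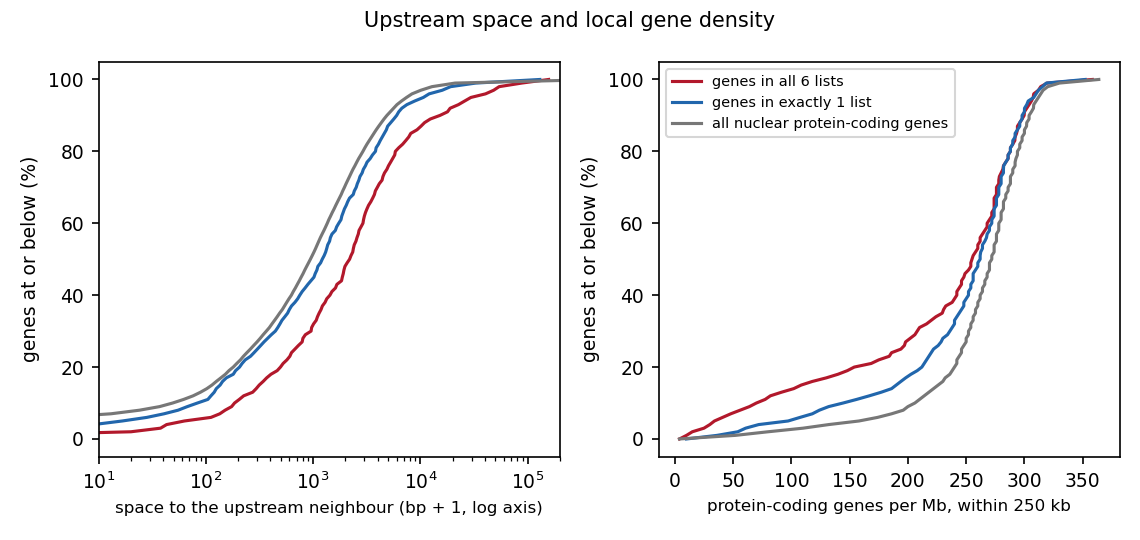
Cumulative share of genes (y axis, %) against the space to the upstream protein-coding neighbour (left, bp on a log axis) and against local gene density (right, genes per Mb), for genes in all 6 lists (red), genes in exactly 1 list (blue) and all genes (grey). Red lies right of the others at left, with medians of 2187, 1215 and 942 bp, and left of them at low density, with 27.5%, 17.1% and 8.68% of genes below 200 genes per Mb.

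Repeated DNA was more common around the set. The share of 31-base words that occur more than once in the genome, over the gene and 2 kb on both sides, had a median of 2.84% for the 426 genes, 1.40% for genes in exactly 1 list, 0.889% for genes in exactly 5 lists and 0.421% for all genes. It passed 50% in 21 of the 426 (4.93%), against 0.984% and 1.20%. Annotated pseudogenes, a class that in this annotation also holds retrotransposon copies such as the Sadhu family, lay within 2 kb of 95 of the 426 genes (22.3%), against 15.0% and 9.47%. In regions with 200 or more genes per Mb the pseudogene shares were 14.2%, 10.7% and 7.12%, and the repeat medians 0.836%, 0.863% and 0.325%, so that there the set and the genes in 1 list had like medians. Transposon-related products were 4 of the 426 (0.939%, against 0.738% and 0.397%), among them AT1G48720, annotated as a copia-like polyprotein. The part that reads mapping to repeats had in the listings was not tested.

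A small group of members resembled organelle DNA. More than 5% of the 31-base words around 8 of the 426 genes also occur in the mitochondrial or plastid genome, against 0 of the 813 genes in exactly 1 list. Over the genome 106 genes had this property, 8 of them in all 6 lists (7.55%) and 95 in none. *UBQ13* on chromosome 1 was at 41.1%. The other 7 lay on chromosome 2 between positions 3240494 and 3482584, at 77.4% to 97.9%, in the known insertion of mitochondrial DNA near the centromere. They were AT2G07773, annotated as a cytochrome b protein, AT2G07715, and 5 genes of unknown product. Reads from organelle DNA cannot be told apart from reads of such copies, and the part of organelle DNA content in these listings was not tested. Without these genes the set held 418 genes.

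Other annotated features did not gather at the set. A tRNA gene lay within 2 kb of 18 of the 426 genes (4.23%, against 3.44% and 3.51%), among them *DFL2*, 7 bp away, *ATG8I*, 53 bp away, and *HBI1*, 891 bp away. MicroRNA genes lay within 2 kb of 5 (1.17%, against 0.861% and 1.45%). *AFB2* had *MIR169i* and *MIR169j* downstream, at 1177 and 1550 bp, and *IAA8* had *MIR405a* at 1232 bp upstream. Long non-coding or antisense RNA genes lay within 2 kb of 67 (15.7%), below the 17.7% and 19.2% of the other sets. The upstream neighbour pointed away from the gene for 227 of 426 (53.3%), against 50.1% and 48.1%. By chromosome, the 426 genes were 1.36% of the genes of chromosome 1, 2.02% of chromosome 2, 1.34% of chromosome 3, 1.77% of chromosome 4 and 1.5% of chromosome 5.

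Promoter letters were searched from 250 bases before to 50 after the gene start, on both strands. The G-box (CACGTG), bound by bHLH and bZIP factors such as PIF7, was in 47 of 426 promoters (11.0%), against 8.86% of genes in exactly 1 list and 7.68% of all genes. The TATA box (TATAAA) was in 46.9%, 50.6% and 52.1% of the 3 sets. The evening element (AAAATATCT), a clock-linked motif, was in 13 promoters (3.05%, against 2.58% and 2.82%), and site II (TGGGCC) in 17.1%, 15.3% and 15.5%. The telobox (AAACCCTA) was in 6.34%, 6.89% and 6.22%, the purine repeat (GAGAGAGA) in 7.28%, 8.36% and 8.38%, and a run of 10 or more A or T in 14.1%, 16.7% and 15.7%. The letters of none of these motifs contain another, the G-box reads the same on both strands, and a match is a description of the letters and not a bound site. The evening element was found at *METK4*, *HSFA3*, *WNK9*, *NYC1*, the gene for a chlorophyll b reductase, and *CCL*, a clock-regulated gene. The G-box was found at *BZIP60*, *PSBQ2*, *GPX6*, *HTA7* and *KRP1*, the gene for an inhibitor of cyclin-dependent kinases. The sequences before *CCL*, *PSBQ2* and *BZIP60* are shown as examples of the evening element and the G-box, with capitals as above.
CCL, chr3:9827432-9827681, plus strand: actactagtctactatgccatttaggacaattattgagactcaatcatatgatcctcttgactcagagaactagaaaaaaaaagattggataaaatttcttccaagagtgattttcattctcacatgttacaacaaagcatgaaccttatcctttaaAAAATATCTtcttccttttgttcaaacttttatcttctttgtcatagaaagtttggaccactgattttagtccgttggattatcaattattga
PSBQ2, chr4:2673244-2673493, minus strand: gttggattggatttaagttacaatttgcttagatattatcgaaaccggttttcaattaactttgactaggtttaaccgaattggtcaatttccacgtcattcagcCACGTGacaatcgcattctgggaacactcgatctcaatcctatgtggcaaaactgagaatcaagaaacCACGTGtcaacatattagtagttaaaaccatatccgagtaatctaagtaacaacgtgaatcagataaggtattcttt
BZIP60, chr1:16137464-16137713, minus strand: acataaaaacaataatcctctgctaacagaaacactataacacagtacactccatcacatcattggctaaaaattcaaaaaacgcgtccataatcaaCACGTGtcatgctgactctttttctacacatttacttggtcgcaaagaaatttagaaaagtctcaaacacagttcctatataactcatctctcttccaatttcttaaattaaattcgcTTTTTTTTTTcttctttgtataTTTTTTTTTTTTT
*PSBQ2* had the G-box more than once in these 250 bases.

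The order of rows gave a further property of each listing. Within every chromosome of every list the rows ran through the positions 3 times, as 3 sorted blocks. The first block held only genes on the plus strand, the second only genes on the minus strand, and the third both, and what the blocks stand for is not given in the sources used here. Core genes fell in the third block for 82, 104, 93, 114, 97 and 116 of the 426, taking replicates 1, 2 and 3 in turn and C2 before C3 (19.2% to 27.2%). Genes named by that list alone were in the third block in 33.6%, 62.5%, 57.0%, 76.7%, 61.4% and 75%, in the same order. In each of the 6 lists the share was thus lower for core genes than for genes of that list only.

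Core genes mostly kept the kind of block they were in. Of the 426, 286 (67.1%) were outside the third block in all 6 lists, 65 (15.3%) inside it in all 6, and 75 changed. Those never in the third block had a median of 2574.5 bp of upstream space, and those always in it 1215 bp. *ARF8*, *MEKK1*, *KNAT1*, *AP2*, *TPR1*, *TPR2*, *BAK1* and *SAM2* were never in the third block, and *SAM1*, *MPK3*, *HSFA3* and *CCL* were in it in all 6 lists. *RAN2* changed, being outside it for memory replicates 1 and 3 against C2 and inside it in the other 4 lists. By class, 23 of 32 transcription factors, 15 of 24 kinases and 10 of 12 chromatin genes were never in the third block. Transcription factors and kinases were thus near the 67.1% of all core genes. Lower counts were those of RNA-binding genes, 3 of 10, and transporters, 5 of 13.

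**Figure D5:**
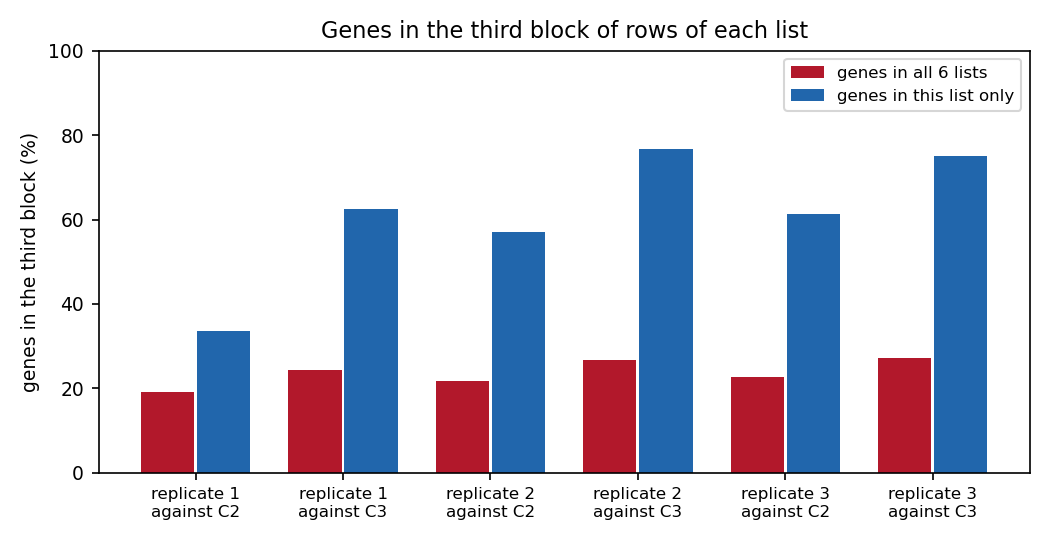
Share of genes in the third sorted block of rows (y axis, %) in each list, for the 426 genes in all 6 lists (red) and the genes that only that list names (blue). Red bars lie between 19.2% and 27.2% and blue bars between 33.6% and 76.7%.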

How the data were processed

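The deposited files were 6 gene lists made by the authors, 1 for each memory replicate against each wild type control. Their columns hold other values than measurements: a locus identifier, a symbol and a description, so that a value is presence or absence. The submitters' processing notes name Trim Galore 0.4.1, cutadapt 1.9.1, Bowtie2 and the build TAIR10. The peak caller, its threshold and the depth are not given in the sources used here.

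Loci were looked up in RefSeq's TAIR10.1 gene models, with 0 identifiers unmatched, and all coordinates are those of genes in that build. Genes in all 6 lists and in exactly 1 list were counted, and product classes were assigned by word patterns in the text of the lists and in RefSeq product names. The patterns were corrected for wrong matches after the members were read, for every set alike. Some wrong and missed matches remained. Rubber elongation factor genes counted as ribosomal and translation, for example, and the NAC regulator gene AT1G19040 had no class. Space was measured to the nearest protein-coding gene. Repeats and organelle similarity were counted as 31-base words over the gene and 2 kb on each side. Proteins were compared with blastp 2.17.0 (E-value 1e-10). Python 3.11.15 and numpy 2.4.6 were used, and the counting steps were tested on simulated data.

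No test was run, because the lists give no value per library and genes are not replicates. The members and the gene classes were chosen with earlier results of these data known. Named genes were *ARF8* and *MEKK1*, class members with a symbol and a sure role, runs of neighbouring genes, and the extremes of space. Genes in exactly 1 or 5 lists were taken from the first with a symbol, with exceptions chosen after their values were seen, as were the families, the similar pairs, the genes given as motif, repeat, feature and block examples, and the promoters shown.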

Additional observations from a re-analysis of the deposited data

How the results depend on the processing

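Of 283 alternatives over 39 results, 253 stayed within limits and 30 moved. Most results were shares, counts or medians of the set alone, so a reversal against the other sets was not scored for them. The order did change for some classes. Transporters were 3.29% against 2.34% in exactly 1 list by list text, but 3.05% against 3.32% by RefSeq names. The limits were the 95% binomial interval of the reported share for a share, and otherwise a factor of 1.5. That interval counts genes, which are not replicates, and is wide for small classes, so staying within it does not show that a share is stable. Transposon-related genes, for example, stayed within it at 0.704% as reported and 1.82% with over 2 kb of upstream space (RefSeq names). Chromatin genes did so at 2.11% and, with the lists against C2 alone, 1.25%. Alternatives on dense regions, over 2 kb of upstream space, repeats and organelle-like windows were chosen after seeing the data. Leaving out 1 memory replicate gave 486 to 531 genes in all remaining lists, the lists against C2 alone 798 and those against C3 alone 578. By list text the ratio of shares to genes in exactly 1 list was 1.91 for transcription factors, 2.2 for kinases and 1.9 for chromatin genes. For transcription factors it was 3.1 in regions with 200 or more genes per Mb and 1.43 against genes in no list, both by RefSeq names. With the lists against C3 alone it was 1.35 by list text. For kinases it was 1.35 against genes in no list by RefSeq names, and 1.52 by list text without memory replicate 3. For chromatin genes it ranged from 1.09 to 2.01 when a memory replicate was left out and was 1.01 with the lists against C2 alone. With all annotated genes as neighbours, median upstream and downstream space were 1195 and 414 bp. They were 782 and 309 bp in exactly 1 list, and 719 and 285 bp for all genes. In dense regions downstream space of the set, to protein-coding neighbours, was 342 bp. Within 1 kb, long non-coding RNA genes lay near 12.4% and pseudogenes near 14.3% of the set, and pseudogenes within 2 kb near 14.2% in dense regions. Genes always in the third block ranged from 16% to 20.2% when a memory replicate was left out. On the strand of the gene alone, the TATA box was in 32.9%, the telobox in 3.76%, the purine repeat in 2.82%, site II in 8.69% and the A or T run in 8.69% of promoters, and in the 250 bases before the start the purine repeat was in 3.99%. No paired analysis was possible because no result comes from a test. The lists give no depth, peak position or peak height, so that weak and strong calls count alike, and the 6 lists share 5 libraries.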
